A study of Bos taurus with 20 samples.

Results

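GBP5 and its relatives are guanylate-binding proteins, a family of large GTPases whose genes lie side by side in the genome. The family was described here in whole blood of 20 recipient cows, 1 library per cow, against the birth weight (BW) of the calf each cow later delivered. The genes were chosen by name (GBP2, GBP4, GBP5 and GBP6), because GBP5 had shown a lower level with higher calf BW in these same libraries. With the NCBI cattle gene table, 3 of the 4 names were matched to 4 loci of the 37063 in the counts. GBP4 and GBP5 were matched by symbol, and GBP6 was a synonym of LOC533657 and LOC536917. GBP2 had no entry in that table and was not analysed here. GBP1, which carries its symbol in the table, was added as a further relative. Of the 4 loci, 3 passed the count filter, as did 16206 loci in all.

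All cows belonged to 1 condition, and calf BW was the only variable that the labels give to tell them apart. Each carried a female beef fetus from an embryo produced in vitro with X-sorted semen, and blood was drawn into Tempus tubes, which lyse the cells and stabilize their RNA, at day 63 of gestation. The published methods give the recipients as lactating dairy cows in 1 place and as Angus in another, and describe cows of widely differing ages. Neither the age nor the breed of each cow was used here, so their part in the slopes was not tested. Total counts per cow ran from 24632077 to 39892111, with a median of 33412740. Calf BW was 45.0 ± 10.1 kg (SD, n = 20), from 30 to 72.5 kg. The cow of the 72.5 kg calf was left out of the slopes, as the study did, which left 43.5 ± 7.97 kg (SD, n = 19).

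Guanylate-binding proteins are among the genes most strongly induced by interferon-gamma in leukocytes and in many other cells. They assemble on the membranes of intracellular bacteria and parasites and on their vacuoles, and several of them promote activation of inflammasomes, the complexes in which caspases process interleukin-1β and gasdermin D. GBP5 in particular is known for promoting assembly of the NLRP3 inflammasome and for reducing the activity of the protease furin on viral envelope proteins. GBP1, GBP2 and GBP5 carry a terminal signal for the attachment of a lipid, which ties them to membranes. Type I interferons also induce members of the family, through a partly overlapping set of transcription factors.

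GBP5 (Entrez 516949) was at 44.9 ± 12 CPM (SD, n = 20), a count scaled to the same library size in every cow, and its raw counts lay between 868 and 2539 per cow. In the 10 cows with the lighter calves its level was lowest at 36.2, 53.9 at the median and highest at 66.9 CPM. In the 10 cows with the heavier calves the corresponding levels were 27.9, 35.1 and 49.2 CPM. The ranges of the lighter-calf and heavier-calf cows overlapped, but 7 of the 10 lighter-calf cows lay above every heavier-calf cow, and 7 of the 10 heavier-calf cows lay below every lighter-calf cow. The cows of the 30 and 32 kg calves were highest, at 66.9 and 66.7 CPM. The cow of the 54 kg calf was lowest. Among the lighter-calf cows that of the 36 kg calf stood low at 36.2 CPM, and among the heavier-calf cows those of the 47.4 and 53 kg calves stood high at 49.2 and 45.7 CPM. In the 19 cows the slope of GBP5 on calf BW was -0.0362 ± 0.0067 (SE) on the log2 scale per kg, or -2.48% per kg. The fitted level at 56 kg was 0.521 times that at 30 kg. GBP5 was chosen for this slope, so it is given as a description with no test. The cow of the 72.5 kg calf, left out of the fit, had 28.9 CPM of GBP5 and ranked 2 from the lowest of the 20. As GBP5 was chosen in these same libraries, this level is no independent check of the slope.

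**Figure D1:**
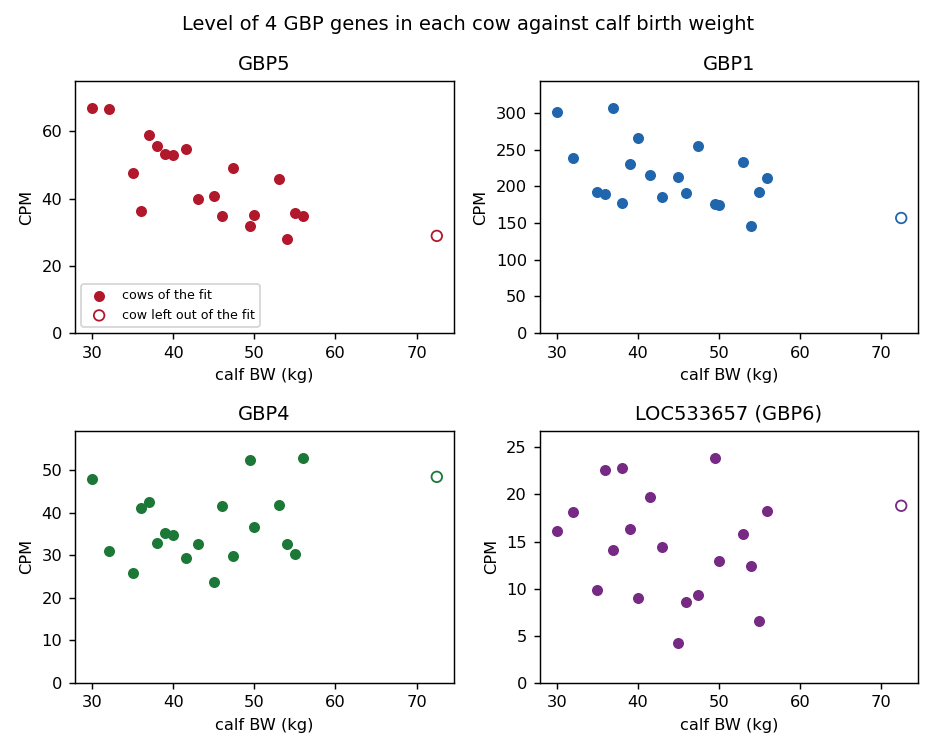
Level of GBP5, GBP1, GBP4 and LOC533657, for which GBP6 is a synonym, in CPM (y axis from 0) against the birth weight of the calf in kg (x axis), 1 point per cow; the open point is the cow of the 72.5 kg calf, left out of the slopes. GBP5 runs from 66.9 CPM in the cow of the 30 kg calf to 27.9 CPM in that of the 54 kg calf, whereas the points of GBP4 and LOC533657 spread over the whole range of birth weight.

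GBP1 (Entrez 512486), the relative that lies next to GBP5, had 213 ± 44.2 CPM (SD, n = 20). The lighter-calf cows had a lowest, median and highest level of 178, 223 and 307 CPM. The heavier-calf cows had 146, 191 and 255 CPM. The ranges of both sets of cows overlapped more than those of GBP5: 3 lighter-calf cows lay above every heavier-calf cow and 4 heavier-calf cows below every lighter-calf cow. Its slope on calf BW was -0.0173 ± 0.0069 (SE) per kg, which did not pass the adjusted test (edgeR's quasi-likelihood test with Benjamini-Hochberg adjustment, unadjusted p = 0.0204, adjusted p = 0.264). With the lightest calf's cow (30 kg) left out its slope was -0.013 (edgeR, unadjusted p = 0.101), and with that of the 54 kg calf left out it was -0.0139 (edgeR, unadjusted p = 0.0579). The cow of the 72.5 kg calf had 157 CPM of GBP1 and again ranked 2 from the lowest.

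GBP4 (Entrez 613313) had 37.2 ± 8.55 CPM (SD, n = 20), with 25.9, 33.9 and 48.0 CPM as lowest, median and highest level in the lighter-calf cows. In the heavier-calf cows it had 23.8, 39.1 and 53.0 CPM. No lighter-calf cow lay above every heavier-calf cow, and the highest GBP4 levels were in the cows of the 56, 49.5, 72.5 and 30 kg calves, at 53.0, 52.5, 48.5 and 48.0 CPM. The slope was 0.0053 ± 0.0087 (SE) per kg and did not pass the test (edgeR, adjusted p = 0.836). Its sign rested on single cows and on the monocyte markers: leaving out the 56 kg calf's cow gave -0.0015 and leaving out the 30 kg calf's gave 0.0136, and it was -0.0009 with the monocyte score in the model.

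LOC533657, with the synonym GBP6, was the most variable of the 4, with 14.7 ± 5.58 CPM (SD, n = 20) and a 5.71-fold range between cows. Its lowest, median and highest levels were 9.04, 16.2 and 22.8 CPM in the lighter-calf cows. They were 4.2, 12.6 and 23.9 CPM in the heavier-calf cows, so that the lowest levels belonged to heavier-calf cows while the highest levels of both sets were close. The slope of -0.0161 ± 0.017 (SE) per kg did not pass the test (edgeR, adjusted p = 0.714), and leaving out the 55 kg calf's cow gave -0.008 and leaving out the 56 kg calf's gave -0.0245. The other locus with the synonym GBP6, LOC536917, had between 0 and 13 counts, with at least 1 count in 15 of the 20 cows, and failed the filter of 10 counts in 5 cows.

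Across all loci tested, edgeR found 0 of 16206 (0.0%) past an adjusted p of 0.05, and 51 (0.315%) past 0.1. At an unadjusted p under 0.05, 1148 loci (7.08%) fell with BW and 1099 (6.78%) rose, and 53.4% of all slopes were negative. DESeq2 called 189 loci (1.2%) at an adjusted p under 0.05. None of GBP1, GBP4 and LOC533657 passed in either tool, with adjusted p-values of 0.206, 0.833 and 0.76 in DESeq2. Whether the slopes differed between the GBP genes was not tested. These p-values measure the spread between these cows. In whole blood, fewer cells of a type and less RNA per cell cannot be told apart.

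**Figure D2:**
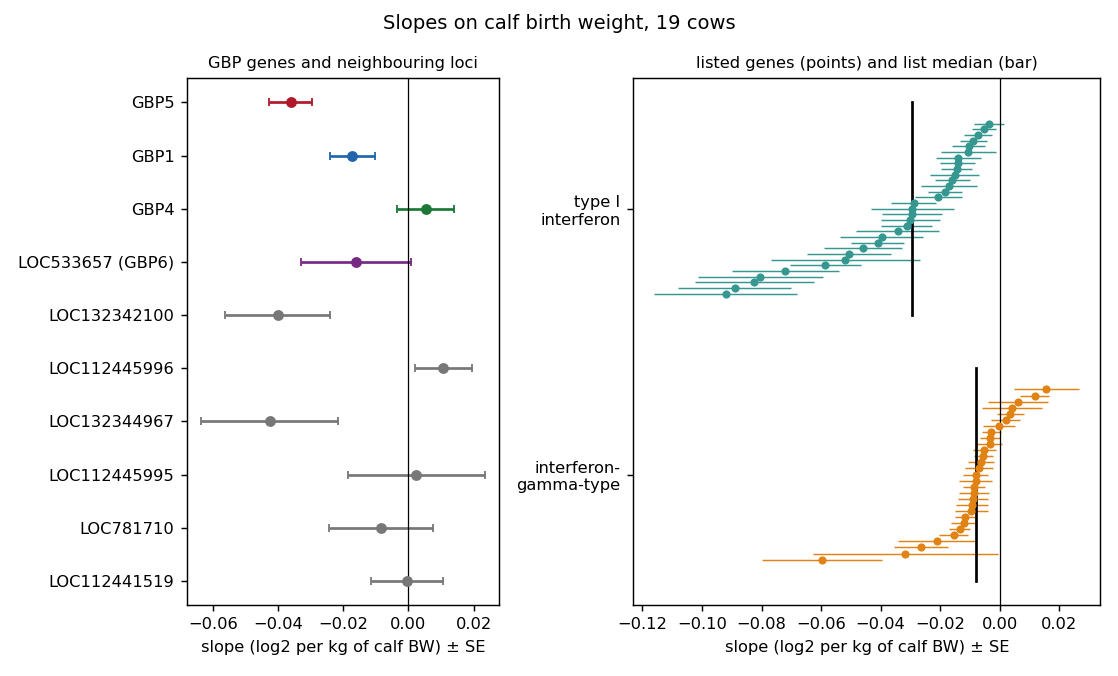
Slopes on calf birth weight in 19 cows, in log2 units per kg, with bars of 1 SE. On the left are the GBP genes and the other loci of their cluster that passed the count filter, and on the right the genes of the interferon-gamma-type and type I interferon lists, with a black bar at each list's median; GBP5 lies at -0.0362 and LOC132342100 at -0.0402, while GBP4 lies on the other side of 0 at 0.0053.

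The 5 loci with a GBP symbol or synonym lie within a stretch of 14 loci in the gene table, and the other 9 carry no GBP name. The order in that stretch begins with LOC536917, a noncoding locus, GBP5, GBP1 and LOC132342100, and it ends with GBP4, LOC112441519 and LOC533657. LOC132342100, a protein-coding locus next to GBP1, was at 112 ± 44.8 CPM (SD, n = 20). It had a lowest, median and highest level of 93.3, 133 and 199 CPM in the lighter-calf cows. In the heavier-calf cows these were 27.4, 90.0 and 123 CPM, and the cows of the 54 and 46 kg calves stood apart at 27.4 and 29.3 CPM while every other cow had 71.4 CPM or more. The same 2 cows had 146 and 191 CPM of GBP1 and 27.9 and 34.9 CPM of GBP5. The slope of LOC132342100 was -0.0402 ± 0.016 (SE) per kg (edgeR, unadjusted p = 0.0183, adjusted p = 0.257). Without the cows of the 46 and 54 kg calves it was -0.0282 ± 0.0092 (SE), with an adjusted p of 0.216 (edgeR), and GBP5 then had a slope of -0.0324. In the same 17 cows the slope of GBP1 was -0.0134 (edgeR, unadjusted p = 0.0718).

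The other loci of the stretch that passed the filter had slopes of both signs, and differences between loci were not tested. LOC132344967, listed as a pseudogene, had a slope of -0.0426 ± 0.021 (SE) at a level of 0.202 to 1.63 CPM. LOC112445996 had 0.0107, LOC112445995 had 0.0024, LOC781710 had -0.0083 and LOC112441519 had -0.0005 per kg, and none of these slopes passed the test (edgeR, adjusted p from 0.382 to 0.991 with that of the pseudogene). Members of a gene family can be alike enough for a read to fit several of them, and how such reads were counted is not given in the sources used here, so the split of counts between adjacent loci is uncertain.

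Relations between the genes were examined across all 20 cows in log2 CPM, which uses no BW. In all, 20 relations were computed (6 pairs of the 4 GBP genes, each gene with 2 list scores, and GBP5 with 6 neighbouring loci), and p-values were adjusted over them. GBP5 and GBP1 varied together, with a Pearson r of 0.80 (permutation p = 3e-05, adjusted p = 0.0006) and a Spearman rho of 0.76 (permutation p = 0.00017, adjusted p = 0.0017). Without the 2 cows farthest from the median of GBP5, those of the 30 and 32 kg calves, r was 0.76. Between residuals after a linear fit of both genes on BW, r was 0.70 (permutation p = 0.00089, adjusted p = 0.0178). It was 0.72 between residuals on the interferon-gamma-type score, 0.70 on the type I interferon score, 0.78 on the T cell score, 0.81 on the monocyte score and 0.80 on the B cell score.

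LOC132342100 also varied with GBP5, with r of 0.71 (permutation p = 0.0001, adjusted p = 0.001) and rho of 0.77 (permutation p = 0.00014, adjusted p = 0.0017). Since 2 cows stood apart in LOC132342100, the relation was computed again in the other 18, where r was 0.74 (permutation p = 0.0005) and rho was 0.71 (permutation p = 0.00138). It was 0.67 without the 2 cows farthest from the median of GBP5, and 0.60 between residuals on BW (permutation p = 0.00423, adjusted p = 0.0282). For the pseudogene LOC132344967, r with GBP5 was 0.49 (permutation p = 0.0278, adjusted p = 0.0696). The other 4 neighbours had r between -0.12 and 0.22 with GBP5.

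No relation of GBP4 with GBP5 was detected. Its r with GBP5 was -0.25 and its rho was -0.27 (permutation p = 0.295 and 0.246), and its r with GBP1 was 0.04 (permutation p = 0.869). The r of GBP4 with GBP5 was -0.40 with the 30 kg calf's cow left out (permutation p = 0.0898, adjusted p = 0.2), -0.38 without the 2 cows farthest from the median of GBP5 and -0.03 between residuals on BW. GBP4 varied with LOC533657, the other GBP locus at its end of the stretch, with r of 0.58 (permutation p = 0.00663, adjusted p = 0.0235) and rho of 0.46 (permutation p = 0.0422, adjusted p = 0.105). Both were lowest in the cow of the 45 kg calf, at 23.8 and 4.2 CPM. LOC533657 was highest in the cow of the 49.5 kg calf at 23.9 CPM, where GBP4 was at 52.5 CPM. Without the 2 cows farthest from the median of GBP4, those of the 49.5 and 56 kg calves, r was 0.51 (permutation p = 0.029, adjusted p = 0.145), and it was 0.63 between residuals on BW. LOC533657 had r of 0.09 with GBP5 and -0.11 with GBP1.

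Most B cell markers had a positive r with LOC533657, which is given as a description without a test. Of 6 B cell markers, 5 had a positive r with it and 3 had r above 0.5, with a median of 0.487 over the 6. Among the 3 were CD79A, a signalling chain of the B cell receptor, at 0.58 and MS4A1, a surface protein of B cells, at 0.52. The marker BLK went the other way, at -0.12. Over all 16269 genes that passed the filter in 20 cows the median r with LOC533657 was -0.0109, 48.5% had a positive r and 2.46% had r above 0.5. The summed level of the 6 markers was 636 CPM in the lowest cow, 886 at the median and 1110 in the highest, and its most abundant gene was MS4A1. With GBP4 the same markers had a median r of 0.256, 6 of 6 positive. Between residuals on the B cell score, r of GBP4 with LOC533657 was 0.51 (permutation p = 0.0217) and rho was 0.40 (permutation p = 0.0778). The 8 monocyte markers had a median r of -0.343 with GBP4 and 0 of 8 positive. The 8 T cell markers had a median r of -0.294 with LOC533657 and -0.212 with GBP4, with 0 of 8 positive for either gene. Over all 16269 genes the median r with GBP4 was 0.00384 and 50.6% had a positive r.

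**Figure D3:**
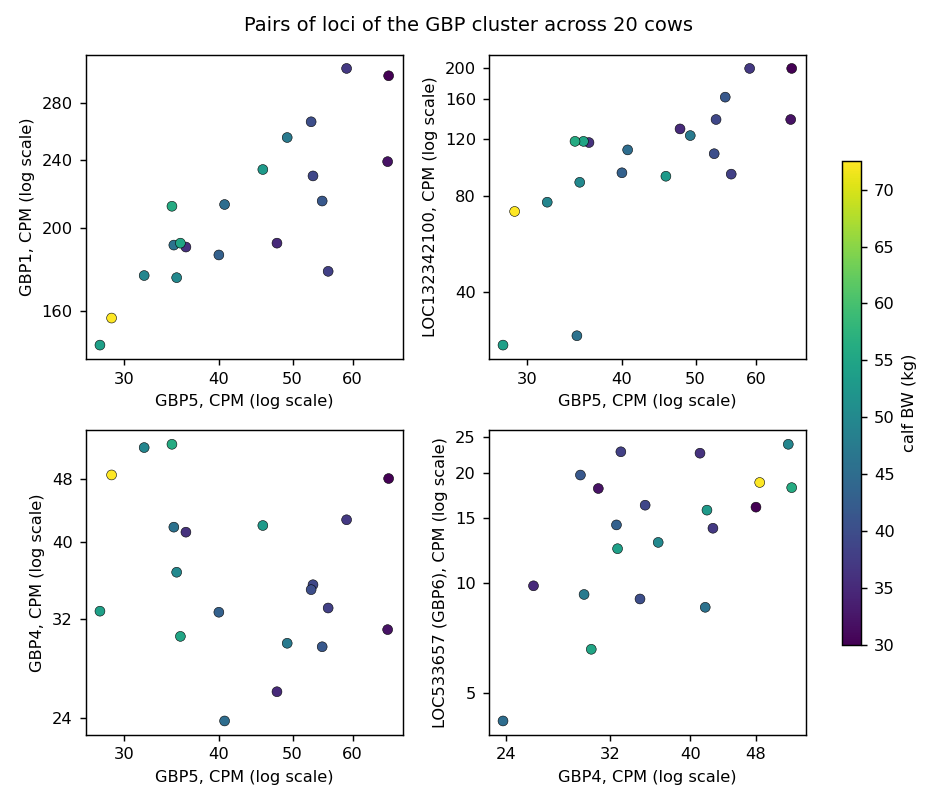
Levels in CPM on log axes in 20 cows, 1 point per cow, coloured by calf birth weight in kg, for GBP5 with GBP1, GBP5 with LOC132342100, GBP5 with GBP4 and GBP4 with LOC533657. The points of GBP5 and GBP1 run along a rising band (r = 0.80), those of GBP5 and GBP4 do not (r = -0.25), and 2 cows lie far below the others in LOC132342100.

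The list of interferon-gamma-type genes comprised 35 names, of which 34 were matched to loci and 29 passed the filter. Most serve antigen presentation, by peptide transport (TAP1, TAP2, TAPBP), the immunoproteasome and its activator (PSMB8, PSMB9, PSMB10, PSME1, PSME2) or MHC class II (CD74, BOLA-DRA, BOLA-DMA, BOLA-DMB). Slopes on BW were negative for 23 of the 29 (79.3%, beside 53.4% of all loci), with a median of -0.008 per kg beside -0.00072 over all loci tested. At an unadjusted p under 0.05, 7 fell (24.1%, beside 7.08%) and 1, TAP2, rose (beside 6.78%). None of the 29 passed an adjusted p of 0.05 in edgeR. Between 6 and 10 fell at that unadjusted p with 1 cow left out, the highest number without the 32 kg calf's cow.

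Of the 4 genes with the highest mean CPM in the list, CD74, the invariant chain of MHC class II, had a slope of -0.0121 ± 0.0044 (SE), BOLA-DRA of -0.0055, TAPBP of -0.0032 and NLRC5, the activator of MHC class I genes, of 0.0036 per kg. BOLA-DMA, which helps to load peptide on class II, had the smallest p of the list and a level of 100 to 139 CPM, with a slope of -0.0135 ± 0.0035 (SE, edgeR, adjusted p = 0.123). PSME2, a subunit of the proteasome activator, had -0.0117 ± 0.0034 (SE, edgeR, adjusted p = 0.167). IRF8, a transcription factor of monocytes and B cells, had -0.0155 ± 0.0049 (SE, edgeR, adjusted p = 0.182). The summed CPM of the matched loci ran from 9550 to 12500 with a median of 10500, and CD74 was the most abundant gene, at a mean of 4410 CPM. CXCL9 had at most 6 counts in a cow, and IRF1, CXCL10, CXCL11 and FCGR1A were listed at 0 in all 20 libraries.

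Across cows, GBP5 had a positive r with 22 of the 29 interferon-gamma-type genes, with a median of 0.316 and 5 genes above 0.5. Over all 16269 genes the median r with GBP5 was -0.00342, 49.6% had a positive r and 2.47% had r above 0.5. Among the 5 genes of the list above 0.5 were CD274, the gene of PD-L1 (r = 0.68), the aminopeptidase LAP3 (0.64), PSME2 (0.62) and PDCD1LG2, the gene of PD-L2 (0.51). GBP1 had a median r of 0.298 with the list and 10 genes above 0.5 (beside 2.44% of all genes), among them LAP3 at 0.88. GBP4 and LOC533657 had medians of -0.0844 and -0.0959. As a mean score of the list, GBP5 had r of 0.50 (permutation p = 0.0258, adjusted p = 0.0696) and rho of 0.52 (permutation p = 0.0193, adjusted p = 0.0903), with r of 0.38 without the 2 cows farthest from the median of GBP5 and 0.16 between residuals on BW. GBP1 had r of 0.60 with that score (permutation p = 0.00516, adjusted p = 0.0235) and rho of 0.51 (permutation p = 0.0226, adjusted p = 0.0903), and r was 0.34 without the 2 cows farthest from the median of GBP1.

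The list of type I interferon genes, mostly antiviral effectors, had 31 genes that passed the filter. All 31 slopes were negative, with a median of -0.029 per kg, and 22 fell at an unadjusted p under 0.05 (71.0%, beside 7.08%). This count rested in large part on the cow of the 30 kg calf, the lightest, where the summed CPM of the list was 10500 beside a median of 4390 over the cows. That cow also had the lowest total count. Without it 25 of the 31 slopes were negative, with a median of -0.0082, and 7 of the 31 genes fell at an unadjusted p under 0.05. Over all loci, 6.84% fell at that p without this cow. GBP5 had a slope of -0.0348 without the same cow, and GBP1 of -0.013.

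IFI6, MX2 and IRF7 had the smallest p-values of the list. IFI6, a mitochondrial and endoplasmic reticulum protein, had a slope of -0.0586 ± 0.012 (SE, edgeR, adjusted p = 0.0976). MX2, a dynamin-like GTPase, ran from 97.4 CPM to 1600 in the cow of the 30 kg calf around a median of 159 CPM, with a slope of -0.089 ± 0.019 (SE, edgeR, adjusted p = 0.0976). IRF7, a transcription factor of interferon genes, had -0.041 ± 0.009 (SE, edgeR, adjusted p = 0.0976). The 4 genes with the highest mean CPM had slopes of -0.0073 for SAMD9, -0.0141 for PARP14, -0.0144 for EPSTI1 and -0.0396 for MX1. IFIT2 and IFIT3 were listed at 0 in all libraries.

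GBP5 had a positive r with all 31 type I genes that passed the filter (median 0.459, 13 above 0.5), and so had GBP1 (median 0.536, 24 above 0.5). Over all 16269 genes 49.6% had a positive r with GBP5, 48.9% with GBP1, 50.6% with GBP4 and 48.5% with LOC533657. GBP4 was positive with 30 of them at a median of 0.233 and LOC533657 with 27 at a median of 0.134, and neither had a gene above 0.5 (beside 1.76% and 2.46% of all genes). With the mean score of the list, r was 0.54 for GBP5 (permutation p = 0.00706, adjusted p = 0.0235) and rho was 0.49 (permutation p = 0.0305, adjusted p = 0.102). With the 30 kg calf's cow left out, r of GBP5 was 0.43 (permutation p = 0.0683, adjusted p = 0.2), and between residuals on BW it was 0.20 (permutation p = 0.421). For GBP1 r was 0.61 (permutation p = 0.00206, adjusted p = 0.0137) and rho was 0.53 (permutation p = 0.0184, adjusted p = 0.0903), with r of 0.38 without the 2 cows farthest from the median of GBP1.

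**Figure D4:**
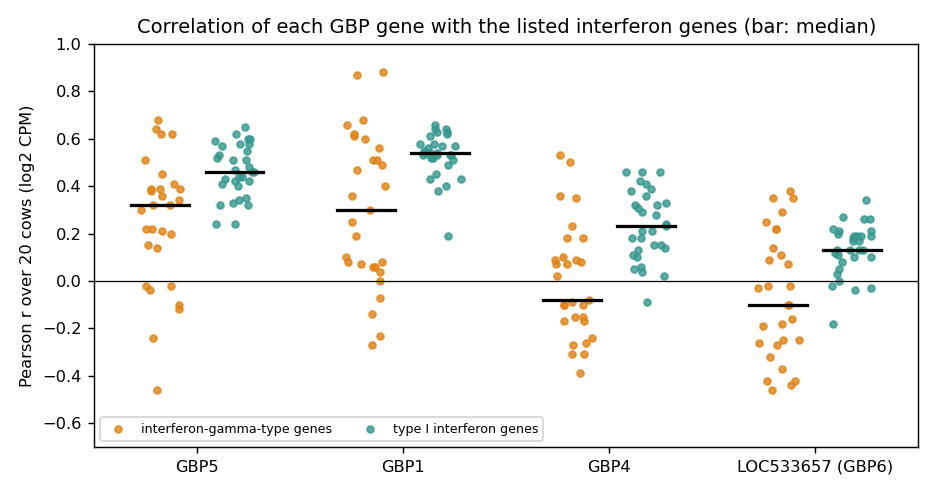
Pearson correlation over 20 cows (y axis, log2 CPM) of GBP5, GBP1, GBP4 and LOC533657 with each of 29 interferon-gamma-type and 31 type I interferon genes, 1 point per gene, with a black bar at the median. GBP5 and GBP1 have medians of 0.316 and 0.298 with the first list and 0.459 and 0.536 with the second, whereas GBP4 and LOC533657 have medians just below 0 with the first.

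With the list scores in the model as covariates, a step added after the data were seen, GBP5 had a slope of -0.0343 ± 0.0077 (SE) beside the interferon-gamma-type score and -0.0337 ± 0.0078 (SE) beside the type I score. The slope of GBP1 was -0.0087 ± 0.0074 (SE) and -0.0093 ± 0.0075 (SE) in the same models, and that of GBP4 was 0.0181 ± 0.0089 (SE) beside the type I score (edgeR, unadjusted p = 0.0544). LOC533657 had -0.0298 ± 0.019 (SE) beside the interferon-gamma-type score (edgeR, unadjusted p = 0.132) and -0.0138 ± 0.019 (SE) beside the type I score. GBP5 had a slope of -0.0353 beside the monocyte score, -0.036 beside the neutrophil score, -0.0365 beside the T cell score, -0.0378 beside the NK cell score and -0.0399 beside the erythroid score. With each of the 19 cows left out in turn it stayed between -0.0402 (53 kg calf's cow left out) and -0.0333 (54 kg calf's cow left out).

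**Figure D5:**
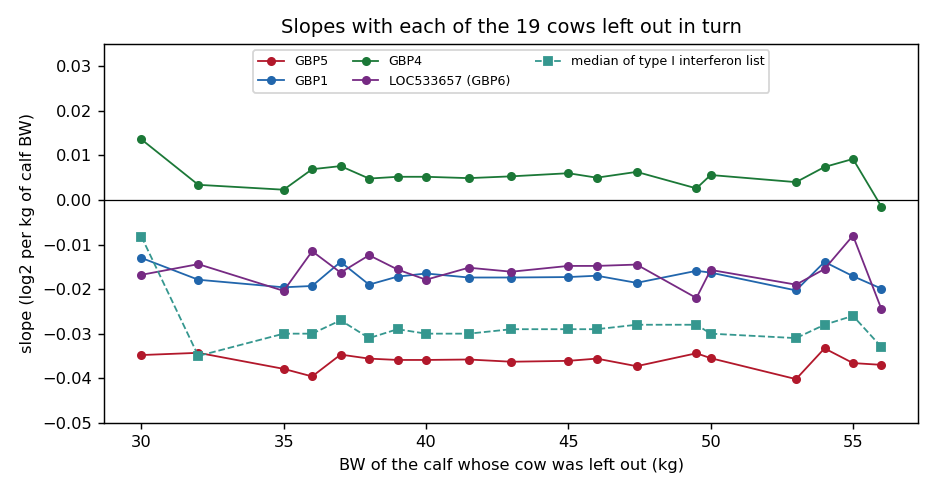
Slope on calf birth weight in log2 units per kg (y axis) of GBP5, GBP1, GBP4 and LOC533657, and the median slope of the type I interferon list (dashed), with 1 of the 19 cows left out at a time, placed at the birth weight of its calf in kg (x axis). The type I median moves to -0.0082 with the 30 kg calf's cow left out, and GBP5 stays between -0.0402 and -0.0333.

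Blood cell markers were read beside these slopes. Over all loci tested, 53.4% of slopes were negative. At an unadjusted p under 0.05 in edgeR, 7.08% of all loci fell with BW and 6.78% rose. All 8 monocyte markers had negative slopes, with a median of -0.0099 per kg and 0 of them past an unadjusted p of 0.05, and their summed level ran from 676 to 1450 CPM with VCAN as the most abundant. All 6 B cell markers also had negative slopes (median -0.0077). Of 7 neutrophil markers 5 were negative (median -0.0015, summed level 2400 to 4510 CPM, led by CSF3R), and of 8 T cell markers 4 were (median 0.00017, summed level 850 to 1290 CPM, led by CD3E). NK cell markers were negative for 1 of 7 (median 0.003, summed level 196 to 405 CPM, led by GNLY), and NCR1 rose at an unadjusted p of 0.0134 in edgeR. The eosinophil markers rested on 3 tested genes with positive slopes, of which IL5RA had 0.0531 ± 0.019 (SE), while CCR3 and ALOX15 were listed at 0. Erythroid markers were negative for 6 of 7 (median -0.054). Among them HBB ran from 46.9 to 1060 CPM and fell at -0.0722 ± 0.031 (SE, edgeR, unadjusted p = 0.0322, adjusted p = 0.307). Platelet markers were negative for 1 of 6 (median 0.01). Of these ITGA2B, an integrin chain of platelets, rose at 0.0205 ± 0.0068 (SE, edgeR, unadjusted p = 0.00647, adjusted p = 0.196). Its r with GBP5 was -0.46, whereas 4 of the 6 platelet markers had a positive r, of up to 0.27 for GP9. With GBP5, the median r was 0.198 for the monocyte list, 0.297 for T cells, 0.138 for neutrophils, 0.103 for NK cells, 0.113 for platelets, 0.0563 for erythroid cells, -0.172 for B cells and -0.243 for eosinophils. The part of cell composition in the GBP5 slope was not tested beyond the covariate fits. Of 7 matched trophoblast genes 6 were listed at 0 in all libraries, and PAG11 reached 12 counts at most.

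The parts of the interferon-gamma pathway that act before the GBP genes had slopes of both signs. IFNG itself was scarce, at 0 to 1.58 CPM, with a slope of -0.0285 ± 0.04 (SE). The receptor genes IFNGR1 and IFNGR2 had slopes of -0.0045 and 0.0005 per kg. Of the 11 pathway genes tested, 5 had negative and 6 positive slopes (beside 53.4% negative over all loci). At an unadjusted p under 0.05, 0 fell (beside 7.08%) and 1 rose (beside 6.78%), the kinase gene JAK1, at 0.0058 ± 0.0023 (SE, edgeR, unadjusted p = 0.0182, adjusted p = 0.256). JAK2, the kinase that acts beside it, had 0.0091 ± 0.005 (SE). Among the inhibitors, SOCS1 had 0.0042, SOCS3 -0.0049, PTPN2 0.0013, PTPN6 0.0024 and PIAS1 -0.0048 per kg. JAK1 had r of -0.43 with GBP5.

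Genes whose proteins act with or after GBP proteins were present in every cow. Of 12 that were tested, 9 had negative and 3 positive slopes (75.0% negative, beside 53.4% of all loci), and 1 fell at an unadjusted p under 0.05 (8.33%, beside 7.08%). That gene was PGGT1B, a subunit of the enzyme that attaches geranylgeranyl lipid, with -0.0075 ± 0.0033 (SE, edgeR, adjusted p = 0.32). The farnesyltransferase subunits FNTA and FNTB had -0.0047 and -0.0023 per kg. Of the inflammasome genes, NLRP3 had -0.01, AIM2 -0.0067, CASP1 0.002, CASP4 -0.0063, PYCARD -0.0017 and GSDMD -0.0004 per kg. The cytokines IL1B and IL18 had -0.01 and 0.0173 per kg, and FURIN had 0.0051. CASP4, at 191 to 323 CPM, had the highest r with GBP5 of these genes, at 0.41, and FURIN the lowest, at -0.34.

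The 10 genes with a mean of at least 1 CPM whose levels over the 20 cows were most like those of GBP5 were named as a description, without a test. In order they were LOC112447032 (Pearson r = 0.81), LOC101902760 (0.80), SPATC1 (0.80), GBP1 (0.80), KIF14 (0.78), PSMA6 (0.76), RBFOX3 (0.74), LOC132344045 (0.74), HDDC2 (0.73) and GPR31 (0.72). PSMA6, a subunit of the proteasome core, ran from 37.9 to 51.9 CPM. KIF14, a kinesin of dividing cells, ran from 4.04 to 7.18 CPM. Between residuals on BW the r with GBP5 was 0.70 for GBP1, 0.68 for LOC101902760, 0.63 for PSMA6 and 0.44 to 0.59 for the other 7. All 10 had negative slopes on BW, and such slopes follow in part from likeness to a gene chosen for its slope.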

How the data were processed

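RNA of whole blood from 20 cows was sequenced. The authors trimmed reads with Trimmomatic, checked them with FastQC 0.11.9, aligned them with STAR 2.7.0b and counted them with featureCounts (Subread 2.0.3), per the labels, and deposited raw counts per Entrez identifier. The labels name a SMARTer Stranded kit and the published methods a Truseq-stranded mRNA kit. The strand setting is not given in the sources used here. All 37063 identifiers were found in a RefSeq gene table of the ARS-UCD2.0 assembly. As the authors aligned to another build, no coordinates are given. Transcript lengths were not used, so CPM is not scaled for length, and the most abundant gene of a list is the one with the highest mean CPM.

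The GBP genes and gene lists were chosen with earlier results of these data known. edgeR 4.0.16 (R 4.3.3, TMM, quasi-likelihood test) gave the slope on BW for loci with at least 10 counts in at least 5 of the 19 cows. Benjamini-Hochberg adjustment ran over all 16206 loci. CPM used TMM library sizes, and correlations used log2 CPM with a prior count of 2 and two-sided permutation tests with 100000 resamples. A score is the mean z-score of a list. No library repeated another (190 pairs, smallest chi-square over degrees of freedom 12.2). Neither the labels nor the methods name a batch. DESeq2 1.42.0, limma 3.58.1 with voom, other size factors and filters, all 20 cows, the rank of BW, cell marker scores and the omission of 1 cow at a time served as alternatives. Fits with the interferon and erythroid scores, fits without the cows of the 46 and 54 kg calves, residuals on list scores, and the slope and relations of GBP1 and of neighbouring loci were added after seeing the data.

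Named genes were the GBP loci, all pathway and partner genes, the 4 most abundant and the 3 with the smallest p of each interferon list, and the 10 genes most like GBP5. Some genes of the lists are not reported here by name. Marker genes, neighbouring loci, TAP2, LAP3, CD274 and PDCD1LG2 were named after their values were seen. Relatives were found by symbol or synonym.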

Additional observations from a re-analysis of the deposited data

How the results depend on the processing

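The slope of GBP5 kept its sign under all 34 alternatives and moved by less than 1 SE in each, from -0.0402 to -0.0333 with 1 cow left out, and was -0.0299 with all 20 cows. The slopes of GBP1 (-0.0203 to -0.013 with 1 cow left out) and LOC533657 (-0.0245 to -0.008) stayed negative and without a call under the same alternatives, and that of LOC533657 was -0.0029 with all 20 cows. The slope of GBP4 had no call under any alternative, ran from -0.0015 to 0.0136 with 1 cow left out, and turned negative, at -0.0009, with the monocyte score. Negative slopes numbered 22 to 24 of the interferon-gamma-type genes and 25 to 31 of the type I genes with 1 cow left out. The Pearson r of GBP5 with the type I score lost its adjusted call without the 2 cows farthest from the median (0.53), with the 30 kg calf's cow left out (0.43) and between residuals on BW (0.20). In the same 3 settings r of GBP1 lost its call with the interferon-gamma-type score (0.34, 0.51 and 0.44) and with the type I score (0.38, 0.51 and 0.44). That of GBP4 with LOC533657 lost it in the first and second (0.51 and 0.58). GBP4 gained a call with the type I score between residuals on BW (0.55, adjusted p = 0.0494). Values near 0 changed sign without a call: GBP4 with the interferon-gamma-type score (0.29 without the 2 farthest cows, 0.19 between residuals), GBP4 with GBP1 (-0.10 without the cow of the 30 kg calf), GBP5 with LOC533657 (-0.01 without the 2 farthest cows), GBP5 with LOC112441519 (0.0 with variance-stabilized counts, then 0.29, 0.19 and 0.22 in the same 3 settings) and GBP5 with LOC112445996 (0.26 between residuals). The cause was not tested. No paired analysis was possible because all cows belonged to 1 group. Depth limits LOC536917 and CXCL9, whose counts did not pass the filter, and IFNG, whose slope has a wide error.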
